A study of Mus musculus with 12 samples.

Results

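The small RNAs described here lie in introns of annotated mouse genes, on the strand opposite to the gene, in DN3 thymocytes of control mice. They are the entries of the deposited list of gene-mapped sequences for that library whose category was intron and whose mapping orientation was antisense. There were 7951 such sequences among 54267 in the list, and 25523 of the list's sequences were intronic. Each entry is 1 distinct sequence at 1 genome position with no read count, so every share below is a share of distinct sequences and says nothing of abundance.

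The study profiled small RNAs in 12 libraries, with control, Drosha-deleted and Dicer-deleted cells of 4 mouse cell types and 1 library per combination. Only the DN3 control library is used here, and no value has a replicate. DN3 cells are immature T cell precursors of the thymus that carry neither CD4 nor CD8. They were sorted by flow cytometry from the thymus of Lck-cre mice aged 6 to 7 weeks, backcrossed to C57BL/6. Lck-cre expresses Cre recombinase from the promoter of a T lineage kinase, and the control cells come from mice with that transgene too. The labels do not say which floxed alleles, if any, the control mice carried. RNA of 19 to 30 nt was cut from a gel, and adaptors could join only RNAs that end in a phosphate on the 5′ side and in a free hydroxyl on the 3′ side.

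Those ends are the ones that RNase III enzymes leave. Drosha and Dicer are RNase III enzymes that cut miRNA precursors in turn, and Dicer can also cut long double-stranded RNA, formed where both strands of a locus are transcribed, into small interfering RNAs whose duplexes carry short 3′ overhangs. Small RNAs antisense to an intron can also come from an independent gene on the other strand, such as a tRNA, small nuclear RNA or long noncoding RNA gene, or from divergent transcription near a promoter. The library's miRNA list was set beside the cell label. All 10 miRNAs taken as T lymphocyte markers were listed and held 46.9% of the list's summed value. Erythroid markers (miR-451, miR-144 and miR-486) held 0.617%, epithelial markers 0.0144% and the myeloid marker miR-223 0.00282%. None of the 4 fibroblast markers (miR-143, miR-145, miR-199a and miR-214) was listed. The share that the T lymphocyte markers hold in other cell types was not examined, so 46.9% does not by itself identify T lymphocytes.

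The sequences of the largest clusters come first, because the later results return to these loci. The 10 largest clusters hold 170 of the 7951 sequences (2.14%). For each of 9 of the 10 clusters with most distinct sequences, the member that shares most bases with its neighbours is printed 5′ to 3′ as read, with capitals for the bases that at least 50% of the cluster's sequences cover. The tenth cluster, in Hhat, first by name of 4 clusters with 9 sequences, had no such bases in its leading sequence and is left out. The Trim7 cluster of 9 sequences is added because it stands beside a printed one. Coordinates are those of the file, and the genome build is not given in the sources used here.
Trim7, chr11:48647434-48647464, minus strand: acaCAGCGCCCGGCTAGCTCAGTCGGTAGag
Trim7, chr11:48647371-48647398, minus strand: ccccaCGTTGGGCGCATGGTAACTTTTt
Trim7, chr11:48647980-48648009, minus strand: AGTGAGTGGGGATGTAGCTCAGTGgtagag
Trim7, chr11:48647909-48647930, minus strand: AACGGCTACCGCCTACCTTTta
Clasp1, chr1:120355787-120355817, minus strand: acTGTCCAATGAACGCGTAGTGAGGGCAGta
Clasp1, chr1:120355716-120355737, minus strand: ttGGTGCAATTTTTGGAAAAAA
Gtf2a1, chr12:92826952-92826978, plus strand: acaaggcgcagGCACTGAAAAGcAGgg
Fgf12, chr16:28714624-28714655, plus strand: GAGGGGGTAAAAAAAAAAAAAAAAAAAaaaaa
Polr3e, chr7:128062159-128062188, minus strand: agggatAaGGCGAACCTAGAAGGACTGTTG
Chd2, chr7:80682949-80682973, plus strand: tgcgGCACAAAGGAACAGCCATTTT

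Among all gene classes of the list, introns held the most antisense sequences, 7951 of 14871 (53.5%), followed by the flank upstream of the gene's 5′ end with 4451. The antisense share of intronic sequences was 31.2% (exact 95% interval 30.6 to 31.7). It was lower than in the 5′ flank, at 56.8% (55.7 to 57.9), and higher than in coding exons (14.3%), 5′ UTRs (10.2%), 3′ UTRs (8.25%) and 3′ flanks (22.7%). The intronic interval did not overlap that of any other class. All intervals here are exact Clopper-Pearson intervals that cover counting error only, and sequences of 1 cluster are not independent of each other. Across the numbered chromosomes and X the share ran from 26.5% on chromosome 19 to 34.5% on chromosome 13.

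**Figure D1:**
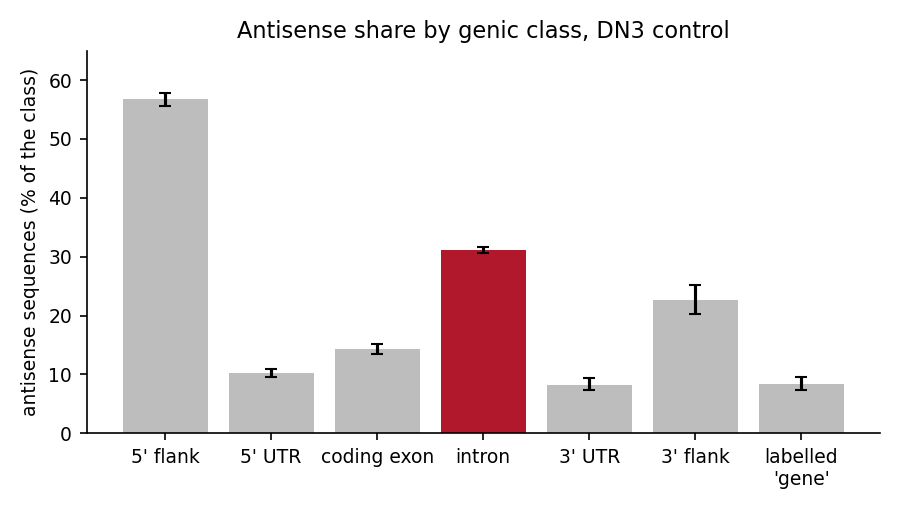
Antisense sequences as a percentage of the distinct sequences in each genic class of the DN3 control list, with exact 95% intervals as error bars. The intron bar stands at 31.2%, below the 5′ flank at 56.8% and above the other classes, of which the 3′ flank is the highest at 22.7%.

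The antisense sequences were spread thinly over many genes. They fell in 4200 gene symbols, of which 2578 (61.4%) had 1 sequence, 241 had at least 5 and 30 had at least 10. Sense intronic sequences fell in 6509 symbols. Both orientations occurred in 2773 symbols, which is 66.0% of those with antisense and 42.6% of those with sense intronic sequences. Only 39 of the antisense sequences belonged to noncoding RefSeq accessions. Antisense sequences in the 5′ flank as well were found for 947 symbols, or 22.5% of the genes with antisense intronic sequences and 40.7% of the 2329 genes with antisense 5′ flank sequences.

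The 10 leading genes held 305 sequences, 3.84% of the set, and differed in how those sequences were arranged. Trim7, which encodes a tripartite motif protein, had 85 antisense sequences and 1 sense sequence. Clasp1, a microtubule plus-end binding protein, had 40 antisense and 2 sense. Fgf12, a fibroblast growth factor homologous factor, had 21 and 1, and Polr3e, a subunit of RNA polymerase III, had 20 and 2. In these 4 genes the antisense strand held at least 90.9% of the intronic sequences. Chd2, a chromatin remodeller, had 26 antisense and 7 sense, Tapt1 had 19 and 8, Nr6a1, an orphan nuclear receptor level with Tnpo1, had 17 and 4, and Gtf2a1, a subunit of the general transcription factor TFIIA, had 25 and 12. The orientations were closest to even in Arrdc3, an arrestin-domain protein, with 27 and 19, and in Ets1, a transcription factor of lymphocytes, with 25 and 24. The 25 antisense sequences of Ets1 fell in 22 separate places over 50943 nt, whereas the 85 of Trim7 fell in 7 places within 763 nt.

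Joining sequences of the same strand that overlap by at least 1 nt gave 6971 clusters, of which 6400 were single sequences. There were 571 clusters of at least 2 sequences, 158 of at least 3, 36 of at least 5 and 9 of at least 10. Clusters of at least 5 held 4.11% of antisense sequences (3.69 to 4.57) and 15.4% of sense intronic sequences (14.9 to 16.0). The largest antisense cluster had 27 sequences and the largest sense cluster 54. As a check of the positions, all 978 pairs of overlapping neighbours in these clusters carried the same bases where they overlapped. Sequences that match the genome exactly must do so. The 36 clusters of at least 5 lay in 31 genes and had a median width of 44 nt.

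The 4 Trim7 clusters held 80 of the gene's 85 sequences, in 2 groups with the same layout. In the first group, 27 sequences covered chr11:48647432-48647468 and 17 covered chr11:48647370-48647398, 33 nt further along the antisense strand. In the second, 27 sequences covered chr11:48647976-48648034 and 9 covered chr11:48647909-48647948, after a gap of 27 nt. The groups were 440 nt apart. In each group the cluster further along the antisense strand held sequences that ended in TTT, 10 of 17 and 4 of 9, and neither of the clusters ahead of it did (0 of 27 in both). RefSeq places a lysine tRNA gene (n-TKctt10) and an alanine tRNA gene (n-TAtgc9) inside Trim7. The letters TAGCTCAG, found in the first part of many tRNAs, were in 40 of the 85 Trim7 sequences and in 59 of all 7951 (0.742%). They were in 0.142% of sense intronic sequences and 0.182% of the whole list, and the reverse complement CTGAGCTA was in 4 antisense intronic sequences. Trim7 gave 40 of the 59, so the higher antisense share rested mostly on 1 gene. The share without Trim7 was not computed. The letters GTTCGA, found in the last part of many tRNAs, were in 14 antisense sequences (0.176%, 0.0963 to 0.295), in 0.114% of sense intronic sequences (0.0695 to 0.176) and in 0.162% of the whole list, and the antisense and sense intervals overlap. The sequences of the tRNA genes themselves were not used here, so no match was made by letters. Of 32 leading genes matched in RefSeq, 11 hold a small RNA gene, on either strand. The share over all genes was not counted, so 11 of 32 cannot be read as an excess. Among them are the miRNA genes Mir181a-2 and Mir181b-2 in Nr6a1 and Mir690 in Fgf12. The small nucleolar RNA genes Gm26080 and Gm25776 lie in Clasp1 and Gtf2a1, and the small nuclear RNA gene Gm22265 lies in Hhat. A further tRNA gene (n-TEttc5, for glutamate) lies in Btn1a1, where 5 antisense sequences covered chr13:23555458-23555487 and 3 of them ended in TTT.

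Clasp1 had its sequences within 332 nt, in clusters of 21 (chr1:120355781-120355839), 12 (chr1:120355715-120355740) and 3 (chr1:120355644-120355665). Of the 21 sequences in the largest, 20 were found letter for letter in Gm22710, a small nuclear RNA gene of GENCODE, and the same number in 2900060B14Rik, a long noncoding RNA annotated as antisense. Of the 12 in the next, 10 were in 2900060B14Rik. In human, the gene for the minor-spliceosome U4atac RNA lies in an intron of CLASP1 on the opposite strand. In these clusters many sequences shared an end: 7 of 21 had the same 3′ end in the largest and 6 of 12 in the next.

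**Figure D2:**
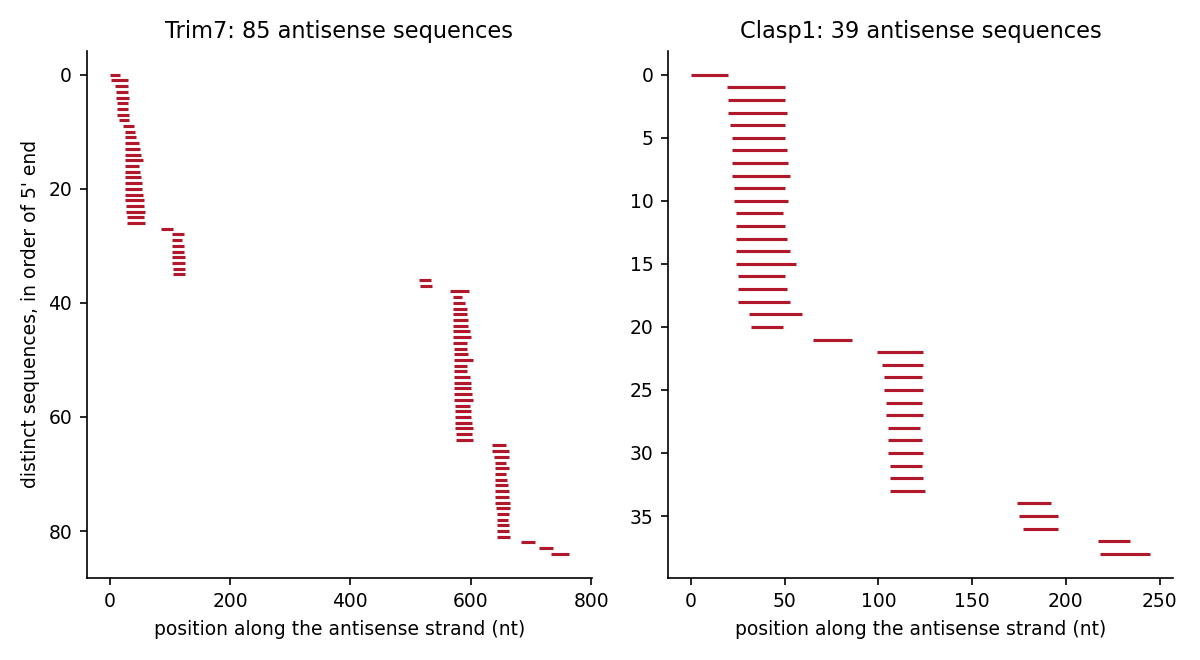
Each bar is 1 distinct antisense sequence of Trim7 (85 drawn) or Clasp1 (39 of 40 drawn), in order of its 5′ end, against its position in nt along the antisense strand. Trim7 shows 2 groups of stacked sequences, each with a second stack further along, and Clasp1 shows stacks of 21, 12 and 3.

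Other large clusters ranged from many different ends to a few shared ones. The longest, in Gtf2a1, covered 89 nt at chr12:92826924-92827012 with 20 sequences, which had 19 different 5′ ends and 17 different 3′ ends. In Chd2, 10 sequences over 71 nt (chr7:80682941-80683011) had 10 different 5′ ends, and in Hhat, an acyltransferase of hedgehog proteins, 9 sequences over 71 nt (chr1:194571902-194571972) had 9. Bnip2 (6 sequences over 68 nt) and Sumo3 (5 over 65 nt) followed in width. The Polr3e cluster, 11 sequences at chr7:128062154-128062210, had 10 different 5′ ends, and 5 of the 11 shared a 3′ end. In Bnip2, 3 of 6 shared a 5′ end, and the 16 sequences of the Fgf12 cluster had 3 different 5′ ends. The 5′ ends all differed in 11 of the 36 antisense clusters of at least 5 (30.6%, 16.3 to 48.1) and in 29 of 242 sense ones (11.98%, 8.17 to 16.8). In clusters of 3 or 4 they all differed in 63.1% (53.9 to 71.7) of 122 antisense and 51.1% (45.1 to 57.0) of 284 sense clusters. The intervals overlap at both sizes, and the antisense share was the higher at both. Over all clusters of at least 3, the shares were 55.7% (47.6 to 63.6) of 158 antisense and 33.1% (29.1 to 37.3) of 526 sense clusters. These intervals do not overlap, but 36 of the 158 and 242 of the 526 had at least 5 sequences, so the sizes differed. Among clusters of at least 3, a single shared 5′ end was found in 4.43% (1.80 to 8.92) of antisense and 9.70% (7.30 to 12.6) of sense clusters, intervals that overlap.

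Eif4e, the translation factor that binds the mRNA cap, had 7 antisense sequences, all of 21 to 23 nt, in a single cluster of 26 nt at chr3:138189910-138189935 with 4 different 5′ ends. RefSeq places a miRNA gene, Mir1956, inside Eif4e, and none of the 7 was found in its hairpin. Eif4e was among the 5 genes with most antisense sequences of that length, after Trim7 with 20 and beside Chd2 and Ets1 with 7 each and Arrdc3, first by name of several genes with 5. No other gene of these 5 had all of its sequences in that range.

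Sequences with long runs of A formed a separate kind. The Fgf12 cluster (chr16:28714623-28714655) held 16 sequences, and all 16 carried at least 8 A in a row. The printed sequence was of this kind in 5 of the 36 clusters of at least 5. Such runs were in 1.60% of antisense (1.33 to 1.90) and 0.569% of sense intronic sequences (0.463 to 0.692). Runs of 8 or more T were in 0.0755% and 0.0626%.

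The antisense sequences were shorter than the sense intronic ones. Their median length was 20 nt, with quartiles at 18 and 23 nt and a range of 15 to 34 nt, against a median of 21 nt and quartiles of 18 and 25 nt. The commonest length was 18 nt in both, at 19.6% of antisense (18.7 to 20.5) and 14.2% of sense sequences (13.7 to 14.8). Sequences of 15 to 18 nt, below the range named for the gel cut, were 38.8% of the antisense set (37.7 to 39.8) and 25.96% of the sense set (25.3 to 26.6). The lengths usual for miRNAs and small interfering RNAs, 21 to 23 nt, held 19.8% (19.0 to 20.7) and 22.8% (22.2 to 23.5). This order rested on the sequences below 19 nt: among those of 19 to 30 nt the shares were 33.1% (31.7 to 34.4) and 32.1% (31.2 to 32.9), with intervals that overlap. There was no peak at 22 nt in the antisense set, where 625 sequences had 21 nt, 517 had 22 nt and 434 had 23 nt.

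Read the other way, the antisense share of intronic sequences depended on their length. It was 48.8% (45.3 to 52.3) at 15 nt, 38.3% (36.8 to 39.8) at 18 nt, 28.0% (25.95 to 30.1) at 22 nt and 20.3% (17.01 to 23.9) at 30 nt. At 15 nt the interval included an even split between the strands, and from 16 nt on every interval lay below it, up to 32 nt, the longest length with at least 50 sequences.

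**Figure D3:**
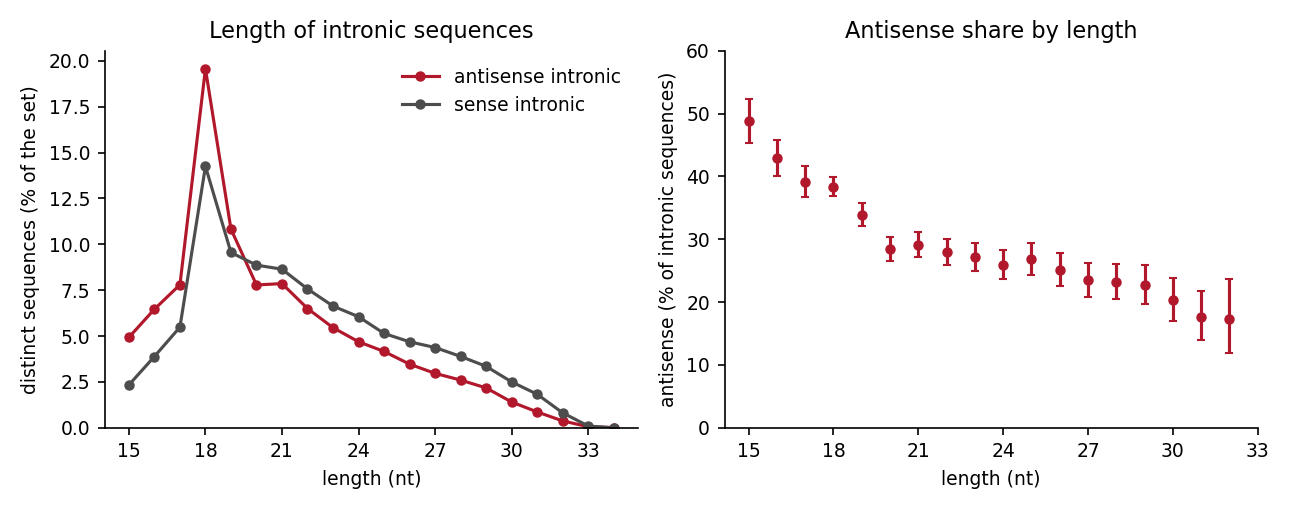
Left, the percentage of distinct antisense and sense intronic sequences at each length in nt. Right, antisense sequences as a percentage of the intronic sequences of each length, with exact 95% intervals. The antisense share stands at 48.8% at 15 nt and 20.3% at 30 nt.

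The first base differed between the orientations. Antisense sequences began with A in 33.3% (32.3 to 34.4), G in 28.9%, C in 21.1% and T in 16.6% (15.8 to 17.5). Sense intronic sequences began with A in 27.9% (27.3 to 28.6) and with T, the usual first base of miRNAs, in 25.2% (24.5 to 25.8). At least 60% of the bases were G or C in 35.5% of antisense (34.5 to 36.6) and 28.2% of sense intronic sequences (27.5 to 28.8). Both were below the whole list, at 40.9% (40.4 to 41.3), and antisense 5′ flank sequences, at 51.3% (49.8 to 52.8).

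Many antisense sequences lay close to the 5′ end of their gene. The file gives no gene starts, so the span of each gene's own 5′ flank and 5′ UTR sequences served as the reference, which 3978 of the 7951 antisense sequences (50.03%) in 1977 accessions had. Of these, 48.8% (47.3 to 50.4) lay within 1000 nt of it, against 36.5% (35.5 to 37.4) of 9938 sense intronic sequences. The median distances were 1042 and 2282 nt. In the 1483 accessions with both orientations, the shares within 1000 nt were 47.2% (45.5 to 48.9) and 34.2% (32.96 to 35.4). Antisense sequences were few in the first 100 nt, at 2.01% against 6.75% of sense sequences, and reached 6.79% per 100 nt between 300 and 400 nt and again between 500 and 600 nt.

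**Figure D4:**
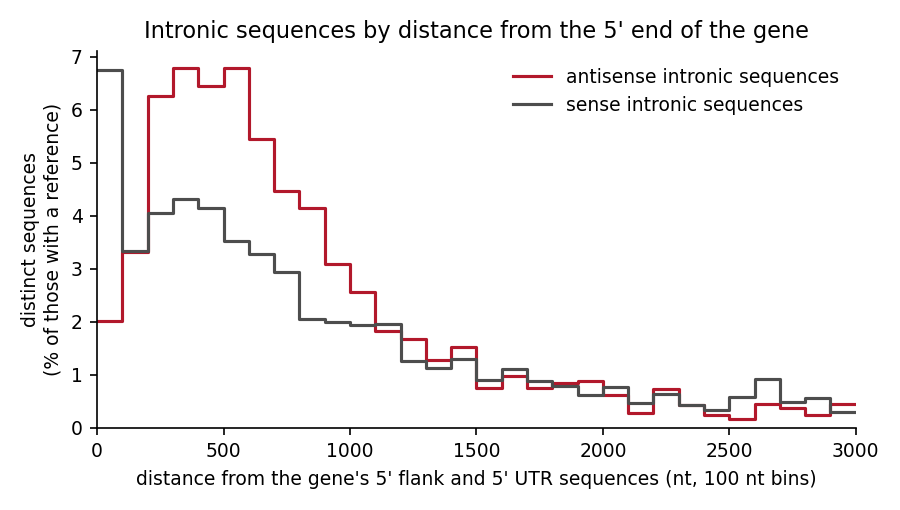
Distinct intronic sequences per 100 nt of distance from the gene's 5′ flank and 5′ UTR sequences, as a percentage of the 3978 antisense or 9938 sense sequences with such a reference, up to 3000 nt. The antisense line is at 2.01% in the first bin and at 6.79% at 300 to 400 nt, and the sense line is at 6.75% in the first bin.

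The sequences near the 5′ end and those far inside the gene differed in length. Within 1000 nt, 25.5% (23.6 to 27.5) of 1942 antisense sequences had 15 to 18 nt, and beyond 10000 nt 48.1% (45.0 to 51.1) of 1055 did. For sense intronic sequences the same shares were 22.0% (20.7 to 23.4) and 23.7% (22.3 to 25.3). Antisense sequences of 21 to 23 nt made up 26.1% (24.1 to 28.1) near and 15.3% (13.1 to 17.6) far, and the sense shares were 24.3% and 24.8%. Sequences with at least 60% GC made up 53.1% of the near and 24.8% of the far antisense sequences, and 45.7% and 18.9% of the sense ones, so base composition moved with distance in both orientations. Among intronic sequences of 19 to 30 nt, the antisense share was 34.02% (32.6 to 35.5) within 1000 nt and 18.5% (17.1 to 19.96) beyond 10000 nt. Among those of 15 to 18 nt it was 38.4% (35.7 to 41.1) and 39.8% (37.1 to 42.6), intervals that overlap.

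Some antisense sequences reached the start of the gene itself or of a neighbour. Of the 6425 with at least 18 nt, 200 (3.11%) were found exactly in a RefSeq promoter window of GRCm38.p6, from 250 bases before to 50 after a gene's start. In 134 the window belonged to the host gene and was matched on its antisense strand, in 43 the sequence was sense to another gene's window and in 26 antisense to another's. Of 15514 sense intronic sequences of that length, 175 (1.13%) were in the host's window and 201 (1.30%) were antisense to the window of another gene.

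Annotated transcripts accounted for few of the antisense sequences. Of the same 6425, 326 (5.07%, 4.55 to 5.64) were found exactly, in sense, in a GENCODE transcript, none of them a transcript of the host gene. The same match was made by 4496 of 15514 sense intronic sequences (29.0%). The 326 fell in 183 genes. A sequence found in transcripts of more than 1 type was counted under each. Transcripts annotated as antisense held 171 of them, transcripts to be experimentally checked (TEC) 43, protein-coding transcripts of another gene 38 and small nuclear RNAs 21. Those 21 were all in Gm22710 in Clasp1, and 2900060B14Rik, also in Clasp1, gave 36 of the 171. Gm44686 held 14 of the Chd2 sequences, 1700023H06Rik 13 of those in Arrdc3, Gm42983 10 of those in Tapt1 and Nr6a1os 4 of those in Nr6a1. Of the 36 clusters of at least 5, 7 held a sequence with such a match.

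Only 4 of the 7951 antisense sequences matched a miRNA hairpin of RefSeq, against 316 of the 17572 sense intronic ones. The share over the whole list was not counted. None of the 54267 genic sequences, in either orientation, was in the library's own list of 1067 miRNA sequences. Whether sequences had been divided between the lists beforehand was not examined, so this absence does not show that the members are not miRNAs. The 4 antisense sequences came from 3 hairpins that lie antisense to their host. The mature miRNAs are printed with the seed (bases 2 to 8) in capitals because a member came from each of their hairpins.
mmu-miR-3110-5p: uUCUGCCUccccugaaggcuc
mmu-miR-1941-3p: cAUCUUAGcaguaucucccau
mmu-miR-5620-5p: aCGAGGCAggggcuuugacugug
The 3 seeds differ. In Fam70a, a sequence at chrX:35563630-35563650 was identical to miR-3110-5p and another extended it by 1 base to chrX:35563651. In Krt80, a keratin gene, the sequence at chr15:101199832-101199852 was identical to miR-1941-3p. In Clcn4-2, a chloride channel gene, the sequence at chr7:7251604-7251625 started 2 bases inside miR-5620-5p. GENCODE transcripts of type miRNA held these 4 and 2 more, in Spatc1 (Mir3079, 21 nt) and Mapt (Gm47310, 29 nt), which were not found in a hairpin of the RefSeq table.

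Overlap with sense sequences of the same intron was uncommon. Of the antisense sequences, 218 (2.74%, 2.39 to 3.12) overlapped a sense intronic sequence of the same gene by at least 1 nt, and 248 of the sense intronic sequences (1.41%) were their partners. They made 307 pairs in 153 genes, 95 of which had a single pair, and formed 178 clusters with both strands, 107 of them with 1 sequence on each strand. In 134 pairs the overlap was at least 15 nt. It had a median of 13 nt and a maximum of 25 nt.

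Pairs that show the kinds of overlap are printed below with their paired bases in capitals, the antisense sequence first. The Gtf2a1 pair was the longest exact one, the Nop56 pair shared the longest overlap with pairs of Puf60 and Ube2d3, and the Itga2 pair was the single pair with 2 bases unpaired at both 3′ ends.
Gtf2a1 antisense, chr12:92826791-92826811: CAGCCCCGCGCTCAGCAGCTC
Gtf2a1 sense, chr12:92826791-92826811: GAGCTGCTGAGCGCGGGGCTG
Nop56 antisense, chr2:130101285-130101310: aTTGCTCAGACACATGGAGTCGTCAG
Nop56 sense, chr2:130101281-130101309: atcaCTGACGACTCCATGTGTCTGAGCAA
Itga2 antisense, chr13:115682592-115682607: GATCTCGACGCTCTct
Itga2 sense, chr13:115682590-115682605: AGAGCGTCGAGATCca
In 11 of the 307 pairs (3.58%, 1.80 to 6.32) both 3′ ends extended by 1 to 3 bases, and in 10 (3.26%) the sequences were exact reverse complements with no overhang. Of those 10 antisense sequences, 9 had 15 to 18 nt, and the Gtf2a1 sequence had 21 nt. Both partners had 21 to 23 nt in 15 pairs (4.89%).

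Overlaps of 15 to 17 nt made 78 pairs in 43 genes and overlaps of 10 nt made 23 pairs in 16 genes. A few loci weighed on these counts: Zfp532, a zinc finger gene, gave 18 of the 78, Tomm20, a receptor of the mitochondrial import complex, gave 9, and Snhg1 gave 6 of the 23.

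**Figure D5:**
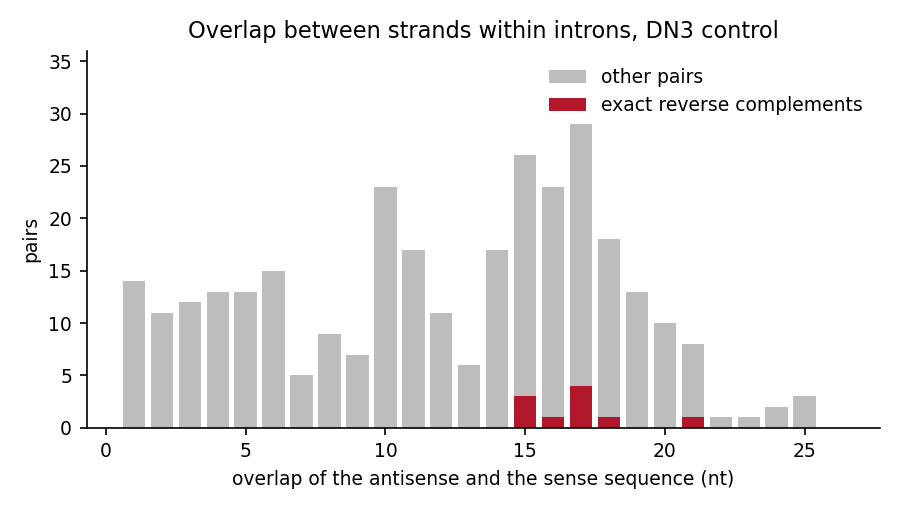
Number of antisense and sense pairs against their overlap in nt, with exact reverse complements in colour. The highest bars are at 17 nt (29 pairs) and 15 nt (26), followed by 16 nt and 10 nt with 23 each, of 307 pairs.

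The largest clusters with both strands were uneven. In Snhg1, a host gene of small nucleolar RNAs, 1 antisense sequence stood against 35 sense ones at chr19:8798484-8798553, and 34 of the 35 were in the small nucleolar RNA gene Gm25855. Tomm20 had 1 against 10, of which 9 were in the small nucleolar RNA gene Gm26397. Nop56, a core protein of small nucleolar ribonucleoproteins, had 1 against 6, of which 4 were in Snord110. The reverse held in Gtf2a1, where the cluster of 20 antisense sequences met 1 sense sequence, in Setd7, a lysine methyltransferase, with 6 against 2, and in 1700029F09Rik with 5 against 1. Zfp532 had 3 antisense and 8 sense sequences of 15 to 19 nt within 19 nt, Cd24a had 2 against 5, Cxcr4, a chemokine receptor of thymocytes, had 2 against 4, and a second Gtf2a1 cluster had 1 against 5. There were 13 clusters with at least 2 sequences on each strand.

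The paired antisense sequences lay nearer to gene starts than the rest. Of those with a reference, 117 of 158 (74.1%, 66.5 to 80.7) were within 1000 nt of the 5′ flank and 5′ UTR sequences, and of the unpaired ones 1825 of 3820 (47.8%, 46.2 to 49.4). Sense intronic sequences, which supply the partners, were also denser there, and the part this had in the difference was not tested.

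Genes of T cell development often had intronic sequences, in both orientations. Of the 60 genes on that list, 54 had any sequence in the genic list. An antisense intronic one was found in 38 of these (70.4%), against 38.7% of all 10847 genes. A sense intronic one was found in 48 of the 54, against 6509 of the 10847, so both orientations were more frequent on this list. The median was 2 antisense sequences per gene, against 0 over all genes, and 3 sense intronic sequences against 1. The antisense share of the list's 455 intronic sequences was 34.9%, against 31.2% over all genes. Ets1 led with 25 of the list's 159 antisense sequences. Myb, a transcription factor of progenitors, followed with 9 antisense and 8 sense sequences, and Tcf12, which encodes the E protein HEB, with 8 and 7. Bach2, a transcriptional repressor of lymphocytes, had 7 and 7. Cd3e, a signalling chain of the T cell receptor complex, had 7 antisense sequences, all within 1000 nt of its 5′ reference, and 12 sense. Notch1, the receptor that drives T lineage commitment, had 7 and 31. Ikzf1 (Ikaros) had 6 and 13, the kinase gene Prkcq 6 and 3, and Runx1 and Tox, both transcription regulators of T cell development, 5 and 9 each.

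Of 22 symbols of the small RNA machinery, some of them older and newer names of 1 gene, 13 were in the list and 5 of these (38.5%) had antisense intronic sequences, close to the 38.7% over all genes. They had 8 antisense and 33 sense intronic sequences in all. Eif2c2, the Argonaute that cleaves its targets, had 3 antisense sequences, Tnrc6b 2, and Dgcr8, the partner of Drosha, Prkra and Tnrc6c 1 each. Dicer1 had 0 antisense and 2 sense intronic sequences, and Drosha, listed as Rnasen, had 0 and 6. Of 6 symbols known as sources of endogenous small interfering RNAs in mouse oocytes, 4 were in the list. Antisense intronic sequences were in 2 of these (50%, against 38.7% over all genes). Ppp4r1 and Rangap1 had 1 antisense intronic sequence each, of 19 and 17 nt, and Pdzd11 and Kif4 had none. Sequences in the exons of these genes were not counted here, so small interfering RNAs from exons are not covered.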

How the data were processed

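The deposited gene-mapped list of the DN3 control library gives, per the file headers, a sequence, its position, a gene, a category and an orientation. All 54267 sequences were distinct, each at 1 position, and no value per sequence is given. In the miRNA list the authors' value per sequence is a whole number and was treated as a score. The aligner and the genome build are not given in the sources used here. On chromosome 7, 189 sequences lie past the last gene of GRCm38, so GRCm38 tables served only for names, neighbours and letter-for-letter matches.

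Positions are printed 1-based. Clusters join sequences of the same chromosome and strand that overlap by at least 1 nt. Pairs across strands need the same gene. Matches to GENCODE vM21 transcripts and RefSeq promoter windows (both GRCm38) used sequences of at least 18 nt. RefSeq hairpins were matched at any length. Python 3.11.15, pandas 2.3.3, NumPy 2.4.6 and SciPy 1.17.1 were used, and the clustering, pairing and matching were tested on simulated positions.

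Intervals are exact 95% Clopper-Pearson intervals. With 1 library there is no test between conditions. The members, gene lists and measures were chosen with earlier results of these data known. Genes named are the 10 with most antisense sequences, those of the 10 largest clusters, of the 10 largest clusters with both strands and of the 5 longest clusters, the 5 with most sequences of 21 to 23 nt, and up to 10 per list. Btn1a1, Itga2, Puf60, Ube2d3, Tnpo1, Spatc1, Mapt and the genes with hairpin matches were named after their values were seen, as was the choice of the distance, run and motif measures. The libraries of the other cell types and genotypes were not used here.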

Additional observations from a re-analysis of the deposited data

How the results depend on the processing

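No paired analysis was possible because 1 library was used and no test was run. Alternatives that kept sequences of 19 to 30 nt, changed the reference for the 5′ end, raised the match length or left out a gene or exact pairs were chosen after seeing the data, as was counting clusters for the share near the 5′ end and the share in a transcript. Counting each cluster once, the antisense share of intronic sequences was 33.8%, the share beginning with A 34.5% and the share in an annotated transcript 4.08%. With sequences of 19 to 30 nt only, the antisense share was 27.6%, the share of 21 to 23 nt 33.1% and the share within 1000 nt of the 5′ reference 54.1%. With 5′ UTR sequences alone as the reference, that last share was 52.5%. With a match length of at least 20 nt, 5.74% were in a transcript. Requiring 2 sequences per gene left 1622 genes, and requiring 15 nt of overlap left 1.11% of antisense sequences paired. The other alternatives moved no share beyond its interval and no count by more than 1.5 times. Among them, counting each distinct sequence once and keeping sequences listed at 1 place could change nothing. Every sequence was already distinct and at 1 position. The list gives neither depth nor read counts, so what a deeper library would add is unknown.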
